A study of Mus musculus with 11 samples.

Results

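The comparison described here is the 48 h fast in mice kept on a high-fat diet. Its members are 6 of the 11 liver arrays of the series, chosen by their titles: fasted mice 1 to 3 against high-fat mice 1 to 3. All 6 mice had eaten a diet with 42.16% fat, 42.81% carbohydrate and 15.02% protein at 4.53 kcal/g for 10 weeks. The fasted mice then had no food for the last 48 h, while the high-fat mice stayed on the diet. The strain is written C57/BL/6J or C57/BL/J6 in the labels (C57/BL/6 for high-fat mouse 3). The sources used here give neither age nor sex. The study groups held 4 fasted and 5 high-fat mice, and each array carries the liver RNA of 1 mouse. Livers of 4 control mice on chow (6.5% of it fat, 23% protein and 49% carbohydrate, at 3.5 kcal/g, from a group of 9 mice) serve as the reference level, and they entered the fit that estimates the spread between mice. The design has no fasted mice on chow, so the fast is measured only on top of the high-fat diet. Each array has 2 colours, liver RNA in one and a universal mouse reference RNA in the other. Each value given is the log ratio of liver over reference, with the median of the array set to 0. The scale is taken as log2, which the sources used here do not state, and every fold given rests on that.

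During a fast the liver turns from storing fuel to releasing it. Falling insulin and rising glucagon and glucocorticoids activate transcription factors such as the forkhead protein Foxo1, CREB and the glucocorticoid receptor, which drive glucose production from amino acids and glycerol. Fatty acids from adipose tissue activate PPAR alpha, the nuclear receptor that induces fatty acid oxidation and ketone body synthesis, while the SREBP and ChREBP programmes of lipid synthesis decline. Autophagy and the proteasome supply amino acids, and cell growth slows.

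Of the 17280 spots, 4013 to 5175 held a value on the fasted arrays and 4283 to 5038 on the high-fat arrays, and 3753 genes (3336 with a symbol) could be compared. As a check of the tissue, of 27 hepatocyte markers with a spot, 7 had no value and 15 had one on all 6 arrays. The mean ratio of these 15 was 1.24 to 1.56 per array. The tested markers ran from the 74.6th percentile of the genes tested (Tdo2) to the 99.6th (Trf), with albumin at the 99.3rd. High-fat array 4 was left out because it did not correlate with any of the 10 others (r from -0.0267 to 0.00879). The arrays used correlated at 0.909 to 0.941 among fasted mice, 0.825 to 0.863 among high-fat mice and 0.832 to 0.877 between the groups. The spread of the ratios, as the median absolute deviation, was 0.44 to 0.49 on the fasted arrays and 0.26 to 0.39 on the high-fat arrays (difference 0.127, two-sided exact permutation test p = 0.1, the smallest p that 3 against 3 allow). The change with the fast climbed with the mean ratio across genes (slope 0.264; genes are not independent replicates), and with arrays scaled to one spread the slope was -0.0843. The value with scaled arrays is therefore given as well for each gene described below whose call it changed, whose sign it turned or whose change it moved by over 1.5 times. It turned the sign of 21 of the 172 genes named by rule and moved 80 others by over 1.5 times. The median change of all genes was -0.05, and it was 0.153 with values as deposited, not centred.

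After the fast, 10 genes fell and 5 rose. The falls were led by Pik3cg, the gamma catalytic subunit of phosphoinositide 3-kinase, by Crabp1, which binds retinoic acid in the cytosol, and by Sh3kbp1, an adaptor in the endocytosis of growth factor receptors, each 2.53-fold to 3.04-fold lower than in the livers of high-fat mice without a fast. The rises with a symbol were Polk, Cct6b, Nt5c3 and Psmd11. None of the 13 called genes with a symbol is an enzyme of fatty acid oxidation, lipid synthesis or glucose production, and most of the well-known fasting genes held no value on these arrays. The calls are those of limma's moderated test at an adjusted p under 0.05, by Benjamini-Hochberg over all 3753 genes, so 0.4% of genes were called in all, 0.133% as higher and 0.266% as lower. At an unadjusted p under 0.05 there were 178 higher (4.74%) and 374 lower genes (9.97%), 552 in all (14.7%). The fasted and high-fat arrays did not overlap for 1100 genes (29.3%), with 404 wholly above (10.8%) and 696 wholly below (18.5%).

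The balance of rises and falls depended on the scale. With arrays scaled to one spread 16 genes were called (0.426%), 1 as higher and 15 as lower, and 10 of the 15 calls were among them. Quantile normalisation gave 4 rises and 22 falls, and without any centring there were 12 rises and 5 falls. Single arrays moved the count too. Leaving out fasted array 1, 2 or 3 gave 6, 3 and 6 calls, and leaving out high-fat array 1, 2 or 3 gave 5, 3 and 4. Without control arrays 2, 3 and 4 it was 36, 8 and 7, and with high-fat array 4 kept it was 3, all of which fell. Crabp1, Pik3cg and Sh3kbp1 were called under all 23 settings tried for single genes, including each array left out in turn.

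**Figure D1:**
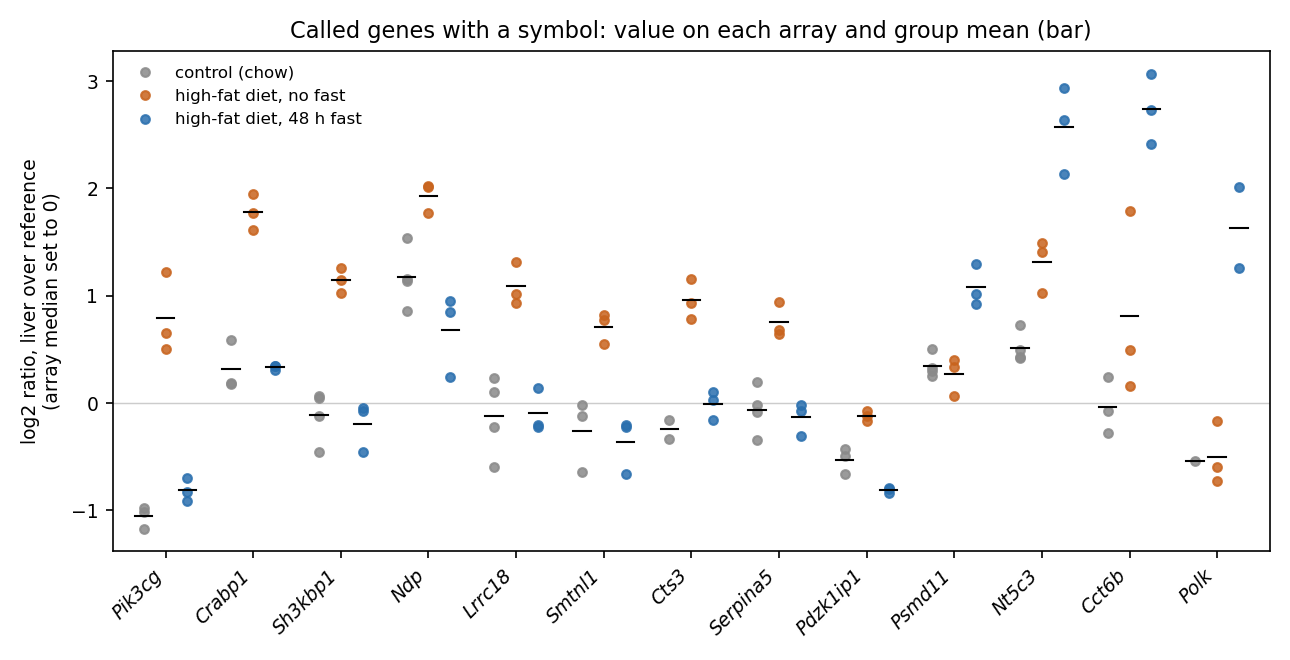
Log2 ratio of liver over reference on each array (array median set to 0) for the 13 called genes with a symbol, with the group mean as a bar: control mice on chow in grey, high-fat mice in orange, fasted mice in blue. In each gene the fasted points lie wholly above or wholly below the high-fat points, and for the genes from Pik3cg to Serpina5 other than Ndp the fasted points lie close to the control points.

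To show the sequence before called genes, the 250 bases before the transcription start are given for the 3 genes called under every setting. They are also given for Serpina5 and Smtnl1, the 2 called genes whose window holds a half-site of the glucocorticoid receptor. That half-site thus occurs in 2 of the 12 windows searched for called genes, against 16.1% of all windows of that length. The sequences are RefSeq's on GRCm38.p6, read 5′ to 3′ on the strand of the gene. They lie at chr9:54764498-54764747 (plus strand) for Crabp1, chr12:32208660-32208909 (minus strand, the first of 2 starts listed) for Pik3cg, chrX:159627022-159627271 (plus strand, the first of 4 starts) for Sh3kbp1, chr12:104100863-104101112 (plus strand) for Serpina5 and chr2:84822653-84822902 (minus strand) for Smtnl1. Capitals mark matches to the motifs searched.
Crabp1: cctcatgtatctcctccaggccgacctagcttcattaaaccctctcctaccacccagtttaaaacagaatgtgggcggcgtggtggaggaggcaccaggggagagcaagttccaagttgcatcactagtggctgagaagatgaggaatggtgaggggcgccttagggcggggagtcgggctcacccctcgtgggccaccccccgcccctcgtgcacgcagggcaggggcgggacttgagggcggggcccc
Pik3cg: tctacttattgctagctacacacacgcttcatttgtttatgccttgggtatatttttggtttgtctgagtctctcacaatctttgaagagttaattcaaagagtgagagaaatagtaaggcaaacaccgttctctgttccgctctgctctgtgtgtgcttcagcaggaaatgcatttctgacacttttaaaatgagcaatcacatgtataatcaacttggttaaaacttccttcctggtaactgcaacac
Sh3kbp1: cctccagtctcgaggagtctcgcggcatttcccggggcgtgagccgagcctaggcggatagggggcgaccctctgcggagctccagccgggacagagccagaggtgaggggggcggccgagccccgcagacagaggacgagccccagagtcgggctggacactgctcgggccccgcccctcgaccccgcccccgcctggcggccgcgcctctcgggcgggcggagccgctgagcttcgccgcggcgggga
Serpina5: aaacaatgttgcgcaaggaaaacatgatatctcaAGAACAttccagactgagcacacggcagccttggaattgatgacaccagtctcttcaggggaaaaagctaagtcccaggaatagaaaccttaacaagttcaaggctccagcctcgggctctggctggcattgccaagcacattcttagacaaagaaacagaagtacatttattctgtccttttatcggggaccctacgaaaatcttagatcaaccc
Smtnl1: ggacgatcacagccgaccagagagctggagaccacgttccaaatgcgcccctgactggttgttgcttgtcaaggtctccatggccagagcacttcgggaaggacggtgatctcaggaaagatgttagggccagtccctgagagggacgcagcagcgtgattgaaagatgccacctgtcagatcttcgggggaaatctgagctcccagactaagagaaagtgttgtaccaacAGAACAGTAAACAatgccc

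The motifs were searched on both strands: the forkhead site GTAAACA, the nuclear receptor half-site AGGTCA, the glucocorticoid receptor half-site AGAACA, the cAMP response element TGACGTCA, the E-box CACGTG and the TATA box TATAAA. Of the 13 called genes with a symbol, 12 had a window in the table. Those of Crabp1, Pik3cg and Sh3kbp1 hold 0 matches to the 6 motifs, and their base composition differs widely, with 63.6%, 38.8% and 76.4% G and C. The window of Serpina5 holds AGAACA at 216 to 211 bases before the start. That of Smtnl1 holds AGAACA at 19 to 14 bases and, directly after it, GTAAACA at 13 to 7 bases before the start, with no base shared. Among all 32851 windows of that length in the table, 16.1% hold AGAACA and 3.17% hold GTAAACA. Among the other called genes, AGGTCA occurs before Polk, TATAAA before Ndp and Cts3, and CACGTG before Pdzk1ip1, motifs that 14%, 12.4% and 6.02% of all windows hold. A match is a stretch of letters and does not show that a factor binds there.

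The largest falls were those of Pik3cg, Crabp1 and Sh3kbp1, single genes with different roles. Pik3cg makes phosphatidylinositol trisphosphate downstream of G protein-coupled receptors and is known mainly from leukocytes. It read -0.91, -0.70 and -0.83 on fasted arrays 1 to 3 and 0.50, 0.65 and 1.22 on high-fat arrays 1 to 3. The fasted livers were close together and far below every high-fat liver, and they were near the control mean of -1.05. The change was -1.60 ± 0.18 (SE, adjusted p = 0.00436), or 3.04-fold, and -1.72 with scaled arrays. Crabp1 holds retinoic acid in the cytosol and delivers it for breakdown. Its ratio was 0.35, 0.35 and 0.31 after the fast and 1.95, 1.61 and 1.77 on the diet alone, against a control mean of 0.32. The 3 fasted livers were nearly equal, and the groups were separated by over 1 log2 unit, with a change of -1.44 ± 0.15 (SE, adjusted p = 0.00436). Sh3kbp1 recruits the ubiquitin ligase Cbl to activated receptors. It read -0.05, -0.07 and -0.46 after the fast and 1.03, 1.26 and 1.15 on the diet, a change of -1.34 ± 0.17 (SE, adjusted p = 0.00549), with a control mean of -0.12.

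Ndp and Serpina5, which also fell, both encode secreted proteins. Ndp encodes norrin, a secreted ligand of the Frizzled 4 receptor, which in liver is listed here with the stellate cell markers. It read 0.85, 0.95 and 0.24 after the fast against 2.02, 1.77 and 2.01 on the diet. The fasted values lay below every high-fat value, with 0.95 inside the control range of 0.86 to 1.54 and the other two below it. The change was -1.25 ± 0.21 (SE, adjusted p = 0.0358), and -1.90 with scaled arrays. Serpina5, the inhibitor of activated protein C, read -0.02, -0.07 and -0.31 against 0.64, 0.68 and 0.94, a change of -0.89 ± 0.16 (SE, adjusted p = 0.043). All 3 fasted livers were at the level of the controls, whose mean was -0.06. Both genes lost their call when any 1 fasted or high-fat array or control array 4 was left out, and the highest adjusted p of any setting was 0.107 for Ndp and 0.182 for Serpina5.

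The remaining falls have few known roles in liver. Lrrc18, a leucine-rich repeat protein, read -0.20, 0.14 and -0.22 after the fast and 1.31, 0.93 and 1.02 on the diet, a change of -1.18 ± 0.21 (SE, adjusted p = 0.043). Smtnl1, a smoothelin-like protein of smooth and striated muscle, read -0.22, -0.20 and -0.66 against 0.55, 0.77 and 0.82, a change of -1.07 ± 0.19 (SE, adjusted p = 0.043). Cts3, a cysteine protease of the cathepsin family known from placenta, read 0.10, -0.16 and 0.03 against 0.93, 0.78 and 1.16, a change of -0.97 ± 0.15 (SE, adjusted p = 0.0384). In these genes every fasted liver was below every high-fat liver, and control means were -0.12, -0.26 and -0.25. Pdzk1ip1 is a small epithelial membrane protein and stands among the bile duct markers here. It read -0.80, -0.79 and -0.84 after the fast and -0.17, -0.12 and -0.07 on the diet. Both groups were tight and did not overlap, and the change was the smallest of the named falls, -0.69 ± 0.12 (SE, adjusted p = 0.043). It was not called with scaled arrays, where it was -0.58 (adjusted p = 0.107). The tenth fall belongs to a spot with no symbol (-0.97). Its call was lost without any 1 fasted or high-fat array, or without control array 3 or 4. The calls of Lrrc18, Smtnl1, Cts3 and Pdzk1ip1 were lost when any 1 fasted or high-fat array was left out, and in part without a control array (1 or 3 for Lrrc18, 3 or 4 for Smtnl1, 1, 3 or 4 for Pdzk1ip1). Their highest adjusted p of any setting was 0.156, 0.163, 0.112 and 0.226.

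The rises were single genes with different roles. Polk encodes DNA polymerase kappa, which copies past damaged bases. It read 1.26 and 2.01 on fasted arrays 1 and 2, had no value on fasted array 3, and read -0.17, -0.60 and -0.73 on the high-fat arrays. The change was 2.13 ± 0.26 (SE, adjusted p = 0.0286), or 4.39-fold, and 2.15 with scaled arrays (adjusted p = 0.0281), the one rise still called there. A single control array held a value, -0.54. Polk could not be tested without fasted array 1 or 2, and its call was lost without high-fat array 2 or 3 (highest adjusted p of any setting 0.0995).

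Cct6b, a subunit of the chaperonin TRiC known from testis, read 2.41, 2.73 and 3.07 after the fast and 0.49, 0.16 and 1.79 on the diet. High-fat array 3 stood well above the other two, yet below the lowest fasted liver. The change was 1.92 ± 0.35 (SE, adjusted p = 0.0455), or 3.79-fold, with a control mean of -0.04, and with scaled arrays it was 1.53 (adjusted p = 0.144). Nt5c3, a nucleotidase that removes phosphate from pyrimidine monophosphates, read 2.13, 2.94 and 2.64 after the fast against 1.03, 1.49 and 1.41 as the average of 2 spots. The group averages did not overlap, and the change was 1.26 ± 0.20 (SE, adjusted p = 0.0286). On the one spot filled on all 6 arrays, however, high-fat array 2 read 3.05, above each fasted liver, and that spot alone had 0.74 and was not called (adjusted p = 0.382). The other spot held a single high-fat value, -0.07 on array 2, so the call of Nt5c3 rests on it. Psmd11, a subunit of the proteasome lid, read 1.02, 1.29 and 0.93 against 0.07, 0.40 and 0.34, again over 2 spots. Every fasted liver was above every high-fat liver on this average, a change of 0.81 ± 0.15 (SE, adjusted p = 0.043). High-fat arrays 2 and 3 lay close to the control mean of 0.35 and high-fat array 1 below every control. On one of the spots of Psmd11 high-fat array 2 (0.80) lay above fasted array 3 (0.69), and that spot alone was not called (adjusted p = 0.198), while the other was (adjusted p = 0.0395). With scaled arrays Nt5c3 had 0.72 (adjusted p = 0.271) and Psmd11 0.69 (adjusted p = 0.108). The fifth rise has no symbol. Its ratio was 1.57 on average after the fast and 0.65 on the diet, with a control mean of 1.57. With scaled arrays its change was 0.62 and was not called (adjusted p = 0.168). Its call was also lost without any 1 fasted or high-fat array, or without control array 3 or 4. Cct6b and Psmd11 were lost without any 1 fasted array, any of high-fat arrays 1 and 2, or any of control arrays 1, 3 and 4, and Psmd11 also without high-fat array 3. Nt5c3 was lost without fasted array 2 or 3 or any 1 high-fat array.

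The high-fat arrays stand in both the comparison with chow and the comparison with the fast, so the 2 changes are given side by side and no relation between them is read. High-fat minus control and fasted minus high-fat were 1.84 and -1.60 for Pik3cg, 1.46 and -1.44 for Crabp1, 1.26 and -1.34 for Sh3kbp1, and 0.76 and -1.25 for Ndp. They were 1.21 and -1.18 for Lrrc18, 0.97 and -1.07 for Smtnl1, 1.20 and -0.97 for Cts3, 0.81 and -0.89 for Serpina5, and 0.41 and -0.69 for Pdzk1ip1. The difference fasted minus control takes no value from the high-fat arrays, but its adjusted p rests on a spread estimated over all 10 arrays. The difference was 0.24 for Pik3cg (adjusted p = 0.502), 0.02 for Crabp1 (adjusted p = 0.962) and -0.08 for Sh3kbp1 (adjusted p = 0.816). For Lrrc18, Smtnl1 and Serpina5 it was 0.03, -0.10 and -0.07 (adjusted p = 0.945, 0.805 and 0.816). For Ndp, Pdzk1ip1 and Cts3 it was -0.495, -0.28 and 0.235 (adjusted p = 0.189, 0.225 and 0.473), with 2 control arrays for Cts3. A return to the control level was not tested, and a large adjusted p does not show one. Of the rises, Nt5c3 had 0.79 and 1.26, Cct6b 0.85 and 1.92, Psmd11 -0.08 and 0.81, and the spot with no symbol -0.92 and 0.92. Polk held a value on 1 control array and was not compared with chow. Fasted minus control was 2.05 for Nt5c3 (adjusted p = 0.000798), 2.77 for Cct6b (adjusted p = 0.0089) and 0.73 for Psmd11 (adjusted p = 0.0247).

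With scaled arrays 5 further genes with a symbol were called, all as lower. They were Rpn2, a subunit of the oligosaccharyltransferase of the endoplasmic reticulum, the cullin-associated protein Cand2, the ring finger protein Rnf10, Myadml2 and the phosphoinositide phosphatase Mtmr3. Rpn2 read 1.10, 1.15 and 0.84 after the fast and 1.63, 1.74 and 1.73 on the diet. Its groups did not overlap, and the change was -0.67 (adjusted p = 0.111), or -1.25 with scaled arrays (adjusted p = 0.0485). Mtmr3 read 0.71, 0.84 and 0.84 against 1.05, 1.14 and 1.23, a change of -0.34 that became -0.74 with scaled arrays (adjusted p = 0.0485). Cand2 had -0.60 and -0.83 on these scales, Rnf10 -0.64 and -0.75, and Myadml2 -0.54 and -0.85. All 5 have ratios above 0 on each high-fat array.

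**Figure D2:**
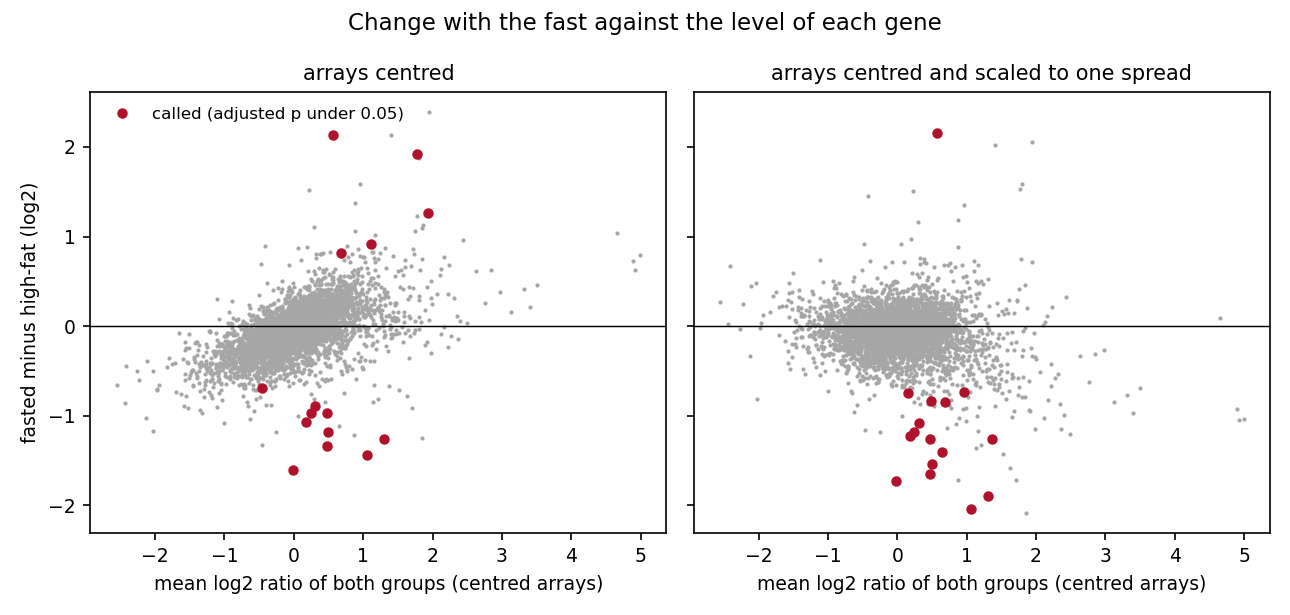
Change with the fast (fasted minus high-fat, log2) against the mean ratio of the 2 groups, 1 point per gene, for centred arrays on the left and arrays scaled to one spread on the right, with called genes in red. On the left the cloud climbs with a slope of 0.264 and holds 15 called genes on both sides of 0, and on the right the slope is -0.0843 and 15 of the 16 called genes lie below 0.

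Among the changes that missed the threshold, several belong to core liver functions. Cyp2c37, a cytochrome P450 that hydroxylates arachidonic acid and drugs, read 1.68, 1.91 and 1.67 after the fast and 0.48, 0.02 and 0.00 on the diet. The groups were over 1 log2 unit apart, with a change of 1.59 ± 0.33 (SE, adjusted p = 0.0666), and control arrays ranged from 1.22 to 2.86. Vtn, the plasma adhesion protein vitronectin, read 1.74, 1.46 and 1.81 against 0.64, 0.60 and 0.73, a change of 1.01 ± 0.35 (SE, adjusted p = 0.221), with control arrays from 1.14 to 2.86. For both genes control array 2 was the highest of the 10 arrays. Snrpg, a core protein of spliceosomal snRNPs, read 1.09, 1.35 and 1.19 against 0.28, 0.38 and 0.30, a change of 0.89 (adjusted p = 0.175), with control arrays from -0.32 to 1.16. In the other direction, Mtarc2, a molybdenum enzyme of the mitochondrial outer membrane, read 0.10, 0.40 and 0.29 against 1.69, 1.20 and 1.54, a change of -1.21 ± 0.23 (SE, adjusted p = 0.0608).

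When the 6 arrays were fitted alone, so that the spread between control mice had no part, 49 genes were called, 17 as higher and 32 as lower. All 15 calls of the fit with controls were among them. The 34 others held 12 that were higher, including Cyp2c37 (adjusted p = 0.00607), Vtn (adjusted p = 0.014), Snrpg (adjusted p = 0.0181) and Nrbp1 (0.80, adjusted p = 0.0245). The 22 that were lower included Mtarc2 (adjusted p = 0.014), Mrps12, a protein of the small mitochondrial ribosomal subunit (-1.03, adjusted p = 0.0236), Atp5g1, subunit c of ATP synthase (-0.82, adjusted p = 0.0254), the Notch target Hes1 (-0.88, adjusted p = 0.0491) and the formaldehyde-oxidising dehydrogenase Adh5 (-0.69, adjusted p = 0.0491). With the 10 arrays the same genes had adjusted p of 0.369 for Mrps12, 0.388 for Nrbp1, 0.0752 for Atp5g1, 0.1 for Hes1 and 0.0939 for Adh5. With scaled arrays the difference was -0.33 for Mrps12 and -0.50 for Atp5g1. Residual degrees of freedom were 4 with 6 arrays and 7 with 10.

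Other large differences without a call followed no single role. On the higher side, Ctrl, a chymotrypsin-like protease of the pancreas, read 0.90, 1.81 and 1.99 against 0.23, -0.10 and 0.46 (1.37, adjusted p = 0.0545), and the iron transporter Slc11a2 read 1.30, 1.86 and 0.91 against 0.16, 0.48 and 0.85 (0.86, adjusted p = 0.183). Pmm1, which makes mannose 1-phosphate for glycosylation, had 0.79 (adjusted p = 0.157) and the chromatin protein Tspyl1 0.72 (adjusted p = 0.123). Rybp, a Polycomb protein, had 0.82 as the average of 2 spots, but 0.20 (adjusted p = 0.466) on the spot filled on all 6 arrays, since the other spot held values on high-fat arrays only. Ccdc18 was in the same position, with 0.81 and 0.56. On the lower side, the small GTPase Rab28 had -1.04 (adjusted p = 0.0661), Gpatch8 -1.08 (adjusted p = 0.0948), the LIM-domain protein Fhl4 -0.90 (adjusted p = 0.0752) and the mitochondrial carrier Slc25a30 -0.85 (adjusted p = 0.14), which turned to 0.03 with scaled arrays. Eif2ak4, the kinase Gcn2 that senses amino acid shortage, read -1.33, -0.91 and -1.13 against -0.74, 0.07 and -0.36 (-0.78, adjusted p = 0.14). Its fasted values lay below the high-fat values and above or within the control range of -1.66 to -1.15. With scaled arrays the differences were 0.26 for Pmm1, -0.54 for Fhl4 and -0.52 for Eif2ak4.

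Fuel metabolism, the function most tied to fasting, gave no called gene. Of 44 known fasting genes 33 had a spot, 20 of these held no value on any of the 6 arrays, and 9 could be tested. Those without a value include Pdk4, which shuts pyruvate dehydrogenase, the hormone Fgf21, the gluconeogenic enzyme Pck1, and Angptl4, Ppargc1a, Igfbp1 and Srebf1. An empty cell is not a low value, so nothing can be said of these genes here. Cyp4a14, a PPAR alpha target that oxidises fatty acids, had values on 3 fasted arrays and 1 high-fat array, and Cpt1a, the gate of mitochondrial fatty acid uptake, on 2 and 1.

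In fatty acid oxidation 13 genes were tested, 5 higher and 8 lower, with a median change of -0.11 (-0.05 with scaled arrays, 0.10 as deposited) against -0.05 for all genes. Decr1, which reduces unsaturated intermediates in mitochondria, read -1.04, -0.79 and -1.01 after the fast and -0.74, -0.29 and -0.33 on the diet (-0.49, adjusted p = 0.175). Ehhadh, the bifunctional enzyme of peroxisomes and a PPAR alpha target, pointed the other way with 1.59 and 0.89 on 2 fasted arrays against 0.45, 0.76 and 0.65 (0.62, adjusted p = 0.497). The 2 enzymes thus lay on opposite sides of 0, and neither was called. The wider list of PPAR alpha targets and fasting genes had 9 of 17 higher, with a median of 0.04 that turned to -0.01 with scaled arrays. Its lipid droplet protein Cidec read 0.75, 0.44 and 0.60 against 0.22, 0.05 and 0.49 (0.34, adjusted p = 0.326). Aqp7, the glycerol channel, had -0.26 (adjusted p = 0.403). Outside this list, in that of bile acid genes, Klb, the coreceptor of Fgf21, had -0.09 (adjusted p = 0.812). The differences with scaled arrays were -0.23 for Decr1, 0.34 for Ehhadh and 0.23 for Cidec. Ketone body enzymes had no tested member. As deposited, with the median of all genes at 0.153, the medians of all lists with at least 8 tested members lay above 0 except those of antioxidant genes and of T, B and NK cells.

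For lipid synthesis, 7 of 11 tested genes were lower, with a median of -0.11 (-0.09 with scaled arrays, 0.13 as deposited). Scd1, which makes oleate from stearate, read 1.35 and 1.15 on fasted arrays 1 and 2 against 2.57, 1.92 and 2.00, with no overlap and a change of -0.91 ± 0.32 (SE, adjusted p = 0.234). Fasn, the fatty acid synthase, read 0.54, 0.41 and 0.04 against 0.20 and 0.36 on 2 high-fat arrays, and its groups overlapped (0.05, adjusted p = 0.949). Acacb, the carboxylase that makes the malonyl-CoA that restrains Cpt1, had -0.49 (adjusted p = 0.402) and the lipid droplet protein Pnpla3 0.32 (adjusted p = 0.444). Scaled arrays gave -1.72 for Scd1, -0.06 for Fasn and 0.20 for Pnpla3. Only 3 genes of cholesterol synthesis were tested, with a median of -0.02 that turned to 0.14 with scaled arrays.

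Genes of glucose production and use showed small differences. Foxo1 read 0.02, 0.13 and 0.03 after the fast and 0.42, 0.41 and 0.43 on the diet. The 3 high-fat livers were almost equal and all above the fasted and the control livers (control range 0.09 to 0.17), yet the change of -0.36 was not called (adjusted p = 0.177). Mdh2, which makes oxaloacetate from malate in mitochondria, read 1.10, 0.92 and 1.12 against 0.68, 0.57 and 0.64 (0.42, adjusted p = 0.189). The gluconeogenesis list was split, 5 higher and 5 lower. Its median of 0.01 turned to -0.06 with scaled arrays. In glycolysis and glycogen metabolism 8 of 12 were lower, with a median of -0.18 (-0.14 with scaled arrays, 0.04 as deposited). The liver phosphofructokinase Pfkl read 1.09, 1.14 and 0.37 against 0.00, 0.11 and 0.69, so that fasted mouse 3 lay below high-fat mouse 3 (0.60, adjusted p = 0.269). The glycogen branching enzyme Gbe1 read -0.21, -0.07 and -0.25 against 0.10, 0.02 and 0.25 (-0.30, adjusted p = 0.322), and liver pyruvate kinase Pklr had -0.04 (adjusted p = 0.951). Scaled arrays gave 0.13 for Mdh2 and -0.07 for Pklr.

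**Figure D3:**
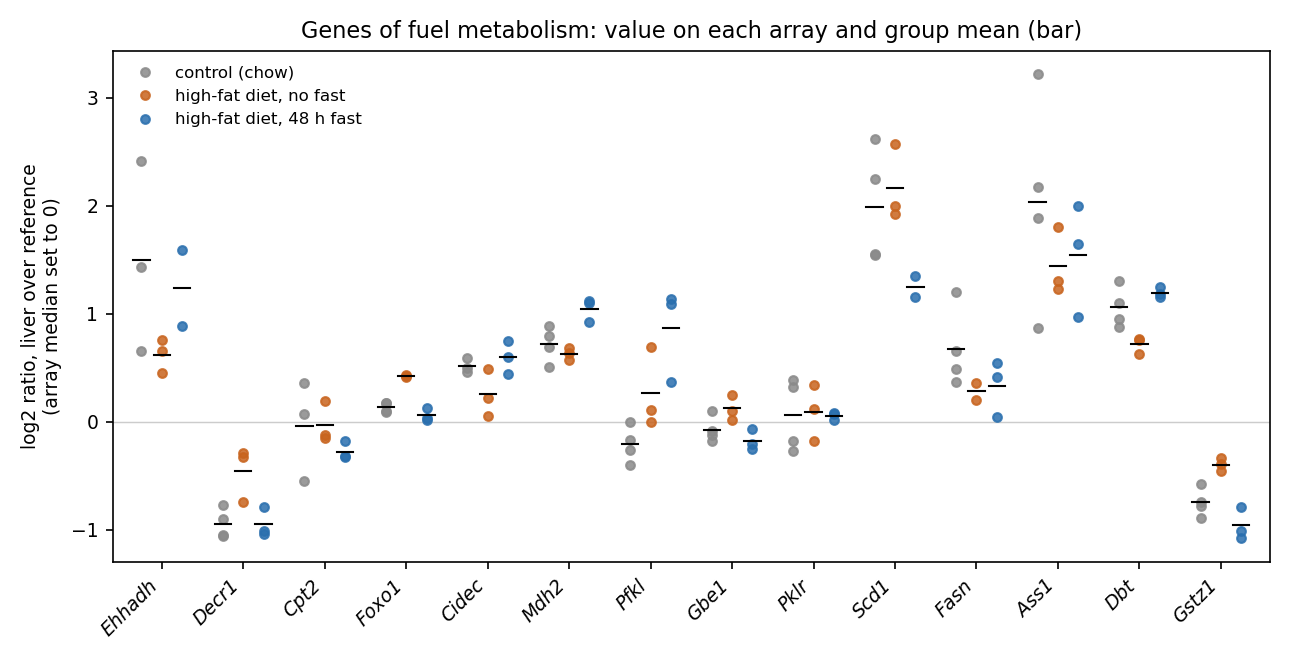
Log2 ratio on each array (array median set to 0) for 14 genes of fatty acid, glucose and amino acid metabolism, coloured by group as above, with the group mean as a bar. Foxo1, Mdh2, Dbt and Gstz1 show fasted points apart from tight high-fat points, Pklr, Fasn and Ass1 overlap, and none of the 14 was called.

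Of 20 tested genes of amino acid breakdown and urea synthesis 14 were higher, with a median of 0.07 that turned to -0.08 with scaled arrays. Dbt, the E2 subunit of the complex that oxidises branched-chain keto acids, read 1.18, 1.25 and 1.15 against 0.63, 0.77 and 0.76 (0.47, adjusted p = 0.157), while Bcat2, the aminotransferase of the preceding step, read -1.29, -1.14 and -0.94 against -0.78, -0.63 and -0.57 (-0.46, adjusted p = 0.185). The 2 genes lay on opposite sides of 0 without overlap, which was found in 29.3% of all genes, and neither was called. Gstz1, which acts in tyrosine breakdown, had the largest difference of the list, -1.08, -0.79 and -1.01 against -0.39, -0.46 and -0.34 (-0.56, adjusted p = 0.0948). These differences were smaller with scaled arrays, 0.18 for Dbt, -0.16 for Bcat2 and -0.36 for Gstz1. Ass1 of the urea cycle had 0.10 (adjusted p = 0.948), which turned to -0.44 with scaled arrays. The tricarboxylic acid cycle and pyruvate dehydrogenase genes had 6 of 11 higher, with a median of 0.01 that turned to -0.07 with scaled arrays.

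Protein synthesis and breakdown gave 1 call, Psmd11, among 12 proteasome subunits. The other members did not share its direction as a group: 5 of the 12 were higher and 7 lower, and the median of -0.02 turned to 0.01 with scaled arrays. Psma7 had 0.29 (adjusted p = 0.418) and the catalytic subunit Psmb5 -0.29 (adjusted p = 0.455). Of 45 genes of ubiquitin conjugation 30 were lower, in 16 of them every fasted liver lay below every high-fat liver, and 5 had the reverse. Over all genes these shares were 18.5% and 10.8%. The list's median was -0.17 (-0.08 with scaled arrays, 0.01 as deposited), and 0 members were called. Cul4a, a scaffold of cullin ubiquitin ligases, read -1.44 and -2.18 on 2 fasted arrays against -0.73, -1.05 and -0.74 (-0.97, adjusted p = 0.147), and the conjugating enzyme Ube2g1 had -0.62 (adjusted p = 0.199). Autophagy and lysosome genes had 11 of 17 lower, with a median of -0.11 (-0.17 with scaled arrays, 0.09 as deposited). Among them the lysosomal membrane protein Lamp2 had -0.41 (adjusted p = 0.305), and Psap, the precursor of the saposins, had 0.77 (adjusted p = 0.325) with overlapping groups. The differences with scaled arrays were -0.01 for Psmb5, -0.53 for Cul4a, -0.16 for Lamp2 and 0.49 for Psap.

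Translation genes offered a view of spot-to-spot error. Eif4a2, an RNA helicase of translation initiation, is one of 10 genes printed on 17 spots, and 5 of its spots had a value on all 6 arrays. All 5 were higher after the fast, by 0.41 to 0.61, while spots of this gene on 1 array had a standard deviation of 0.207. Over all filled spots Eif4a2 read 0.86, 0.88 and 1.11 against 0.55, 0.46 and 0.41, with no overlap. The average difference of 0.48 ± 0.18 (SE) was not called (adjusted p = 0.259) and was 0.24 with scaled arrays, and control livers lay higher than both, at 1.32 to 2.05. Cyc1, cytochrome c1 of respiratory complex III, is printed as often, and its 3 spots filled on all 6 arrays ranged from -0.27 to 0.12, 1 of them above 0. Over all filled spots Cyc1 had 0.04 (adjusted p = 0.951), which turned to -0.22 with scaled arrays. Translation factors and tRNA synthetases had 10 of 18 higher, with a median of 0.06 that turned to -0.03 with scaled arrays. Mitochondrial ribosomal proteins had 16 of 21 lower, with a median of -0.12 (-0.10 with scaled arrays, 0.08 as deposited), and every fasted liver lay below every high-fat liver in 6 of them and above in 1, against 18.5% and 10.8% of all genes. Examples are Mrpl34 (-0.53, adjusted p = 0.188) and Mrps14, which read -0.31, -0.36 and -0.40 against 0.00, -0.02 and -0.07 (-0.33, adjusted p = 0.271). Cytosolic ribosomal proteins had 11 of 16 lower, with a median of -0.09 (-0.15 with scaled arrays, 0.11 as deposited). Oxidative phosphorylation subunits had 12 of 22 lower, with a median of -0.03.

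Drug and steroid metabolism was led by Cyp2c37. The 14 P450 enzymes tested had 9 higher, with a median of 0.08 that turned to -0.07 with scaled arrays, and 0 were called. Cyp2e1, the ethanol-inducible P450 that also oxidises ketone bodies, read 1.72, 2.11 and 2.07 against 1.70, 1.69 and 1.51, a difference of 0.33 that turned to -0.33 with scaled arrays. Conjugating and other detoxification enzymes had 20 of 35 lower, with a median of -0.06 (-0.17 with scaled arrays). Gstm3, a glutathione transferase, read 0.88 and 1.45 on 2 fasted arrays against 2.14, 1.72 and 1.77 (-0.71, adjusted p = 0.263; -1.43 with scaled arrays), and the steroid reductase Akr1c18 had -0.64 (adjusted p = 0.158). Antioxidant and thioredoxin genes had 8 of 11 lower, with a median of -0.21 (-0.06 with scaled arrays). Among 86 solute carriers 41 were higher and 45 lower, with a median of -0.02.

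Genes listed for plasma proteins were divided. In the acute phase, complement and coagulation list 13 of 21 were higher and 1 fell, Serpina5, with a median of 0.10 (0.01 with scaled arrays). Coagulation factor F9 read 1.08, 1.17 and 1.01 against 0.45, 0.63 and 0.53 (0.55, adjusted p = 0.0939), and the protease inhibitor Pzp had 1.06 (adjusted p = 0.107) from 2 arrays per group. Selenop, which carries selenium in plasma, read 2.49, 2.38 and 2.84 against 2.13 and 1.65 (0.68, adjusted p = 0.269). The thyroxine carrier Ttr lay on the other side, at 1.12, 1.35 and 1.25 against 2.64, 1.47 and 1.93 (-0.77, adjusted p = 0.202). All fasted values of these genes were outside the high-fat range. With scaled arrays the differences were 0.32 for F9, 0.41 for Pzp, 0.22 for Selenop and -1.59 for Ttr. Hepatocyte markers had 12 of 16 higher, with a median of 0.10 that turned to -0.40 with scaled arrays, the widest such turn among the lists with at least 8 tested members. Apolipoproteins had 6 of 13 higher, with a median of -0.01, and bile acid genes 7 of 9, with a median of 0.05 that turned to -0.06 with scaled arrays. Among the latter Slc27a5, which activates bile acids and fatty acids with coenzyme A, had 0.78 (adjusted p = 0.373) with overlapping groups.

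In the growth hormone and insulin axis 7 of 14 were higher, and Pik3cg was its 1 call, with a median of -0.04 that turned to 0.01 with scaled arrays. Retinoid genes had 5 of 9 higher and 1 that fell, Crabp1. Their median of 0.05 turned to -0.23 with scaled arrays. The retinol dehydrogenase Rdh12 had 0.68 (adjusted p = 0.321) with overlapping groups. Cell cycle and replication genes had 14 of 22 lower, with a median of -0.09 (-0.02 with scaled arrays, 0.11 as deposited). Cyclin D1 (Ccnd1) read -2.01 and -1.57 on 2 fasted arrays against -1.20, -1.06 and -1.10 (-0.67, adjusted p = 0.163), and the chromatin protein Hmgb2 read 1.52 and 1.98 against 0.64 and 1.11 (0.88, adjusted p = 0.149). Of the clock genes Per1 had -0.07 (adjusted p = 0.849) and Dbp -0.04 (adjusted p = 0.941). Scaled arrays gave -0.13 for Ccnd1, 0.52 for Hmgb2, -0.19 for Per1 and -0.25 for Dbp. At a background of 0.4% called, 0 or 1 call in lists of these sizes does not set any of them apart.

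**Figure D4:**
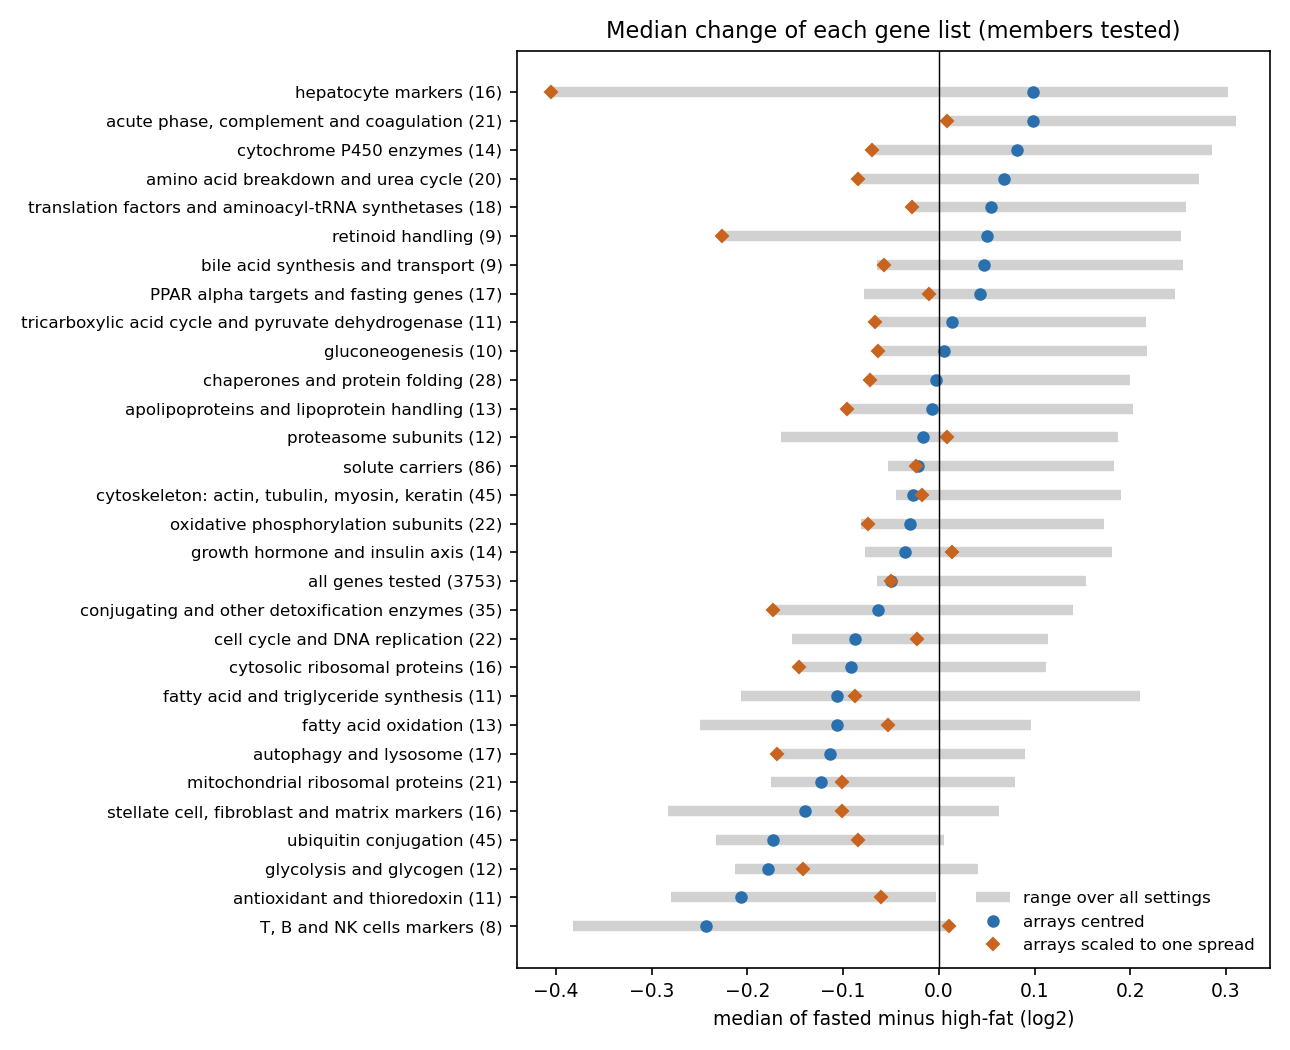
Median change with the fast (log2) of each list with at least 8 tested members, with centred arrays (blue), with arrays scaled to one spread (orange) and the range over all settings (grey bar), with the number of members tested in brackets. The hepatocyte, P450, amino acid, translation factor, retinoid, bile acid, PPAR alpha, tricarboxylic acid and gluconeogenesis medians lie right of 0 with centred arrays and left of 0 with scaled arrays, the T, B and NK cell, proteasome and growth hormone medians turn the other way, and all genes lie at -0.05 on both scales.

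Since a whole liver holds several cell types, fewer cells of a type and less RNA per cell cannot be told apart. Pik3cg and Ndp belong to lists of other cell types, so those lists are given beside them. Of 32 lymphocyte and NK cell markers with a spot, 11 had any value, 7 had one on all 6 arrays, and defining ones such as Cd4, Cd8a, Cd79a and Ms4a1 had none. The mean ratio of the 7, Pik3cg among them, was -0.80, -0.60 and -0.76 on the fasted and -0.45, -0.27 and -0.14 on the high-fat arrays. Over the 6 others, without Pik3cg, it was -0.78, -0.59 and -0.75 against -0.61, -0.43 and -0.36, and the groups overlapped. Of the 8 tested members 3 were higher, by up to 0.18, and 5 lower, with a median of -0.24 that turned to 0.01 with scaled arrays. Among the lower ones, Ptprc, the leukocyte antigen CD45, and Thy1 had -0.66 (adjusted p = 0.333) and -0.49 (adjusted p = 0.259). Both turned sign with scaled arrays, to 0.13 and 0.07. Of 5 tested Kupffer cell markers 3 were higher, with a median of 0.01 that turned to -0.06 with scaled arrays, and Clec4f, Marco and Adgre1 held no value. The scavenger receptor Cd163 read 0.47, 0.40 and 0.48 against 0.07, 0.28 and 0.34 (0.22, adjusted p = 0.527, and 0.14 with scaled arrays). The 2 lower markers, C1qc and Fcgr3, had -0.33 (adjusted p = 0.393) and -0.13 (adjusted p = 0.732), both with overlapping groups. With scaled arrays these were -0.12 and -0.06. Stellate cell, fibroblast and matrix markers had 11 of 16 lower, with a median of -0.14 (-0.10 with scaled arrays, 0.06 as deposited), and Ndp was the 1 that fell. Their mean over 14 members was -0.07 to 0.08 on the fasted and 0.10 to 0.21 on the high-fat arrays. Ndp is 1 of the 14, and without it the mean was -0.11 to 0.01 and -0.04 to 0.07, so that the groups overlapped. Endothelial markers had 3 of 4 higher, with a median of 0.24 (0.05 with scaled arrays), and Pecam1 and Lyve1 had no value. The VEGF receptor Kdr had 0.50 (adjusted p = 0.179, and 0.22 with scaled arrays). Bmp2 had 0.36 (adjusted p = 0.456), which turned to -0.42 with scaled arrays. Tie1 had 0.12 (adjusted p = 0.898, and 0.34 with scaled arrays). Ehd3 lay on the other side without overlap, at -0.48 (adjusted p = 0.393, and -0.12 with scaled arrays). The part of cell composition in the changes of Pik3cg and Ndp was not tested.

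Markers of tissues next to the liver were looked at as well. Pancreatic acinar markers had 3 of 3 tested genes higher, with a mean ratio of 0.90, 0.99 and 1.41 on the fasted and 0.25, 0.35 and 0.66 on the high-fat arrays. They are Ctrl (1.37), the elastase Cela3b (0.42, adjusted p = 0.408, and just under 0 with scaled arrays) and Ctrb1 (0.25, adjusted p = 0.52). The mean includes Ctrl, the largest difference of the 3, and the groups of the other members overlapped. Cela3b read 1.53, 1.20 and 1.81 against 0.90, 1.01 and 1.37. Ctrb1 read 0.26, -0.03 and 0.43 against -0.38, 0.14 and 0.15. Other acinar genes, Prss2, Cela1, Cpa1 and Clps, held no value on the 6 arrays. In striated muscle, listed with Smtnl1, 2 of 4 were higher and Smtnl1 was the 1 that fell. Titin (Ttn) had 0.24 (adjusted p = 0.624; 0.16 with scaled arrays), and Acta1 and Ckm had no value. Of the bile duct list with Pdzk1ip1 the other tested member was Sox9, with -0.88, -0.59 and -0.88 against -0.56, -0.01 and -0.22 (-0.52, adjusted p = 0.296; -0.32 with scaled arrays).

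The place of a spot in the deposited table moved with the results. In rows 1 to 5760 the median change was 0.01, with 47.5% of spots lower, in rows 5761 to 11520 it was -0.05 with 57.6%, and in rows 11521 to 17280 it was -0.10 with 65%. Of the 15 called genes 4 came from rows 15003 to 15031: Cct6b, which rose, and Crabp1, a spot with no symbol in the next row, and Pik3cg, which fell. The 36 other spots compared within 42 rows of them had a median of 0.03 and ranged from -0.76 to 0.26. With the median of neighbouring rows subtracted, a setting chosen after seeing the data, Crabp1, Pik3cg and Cct6b were still called (adjusted p = 0.00383, 0.00383 and 0.0307), and Pdzk1ip1 was not (adjusted p = 0.0786). The part of table position in these 4 calls was not tested further.

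**Figure D5:**
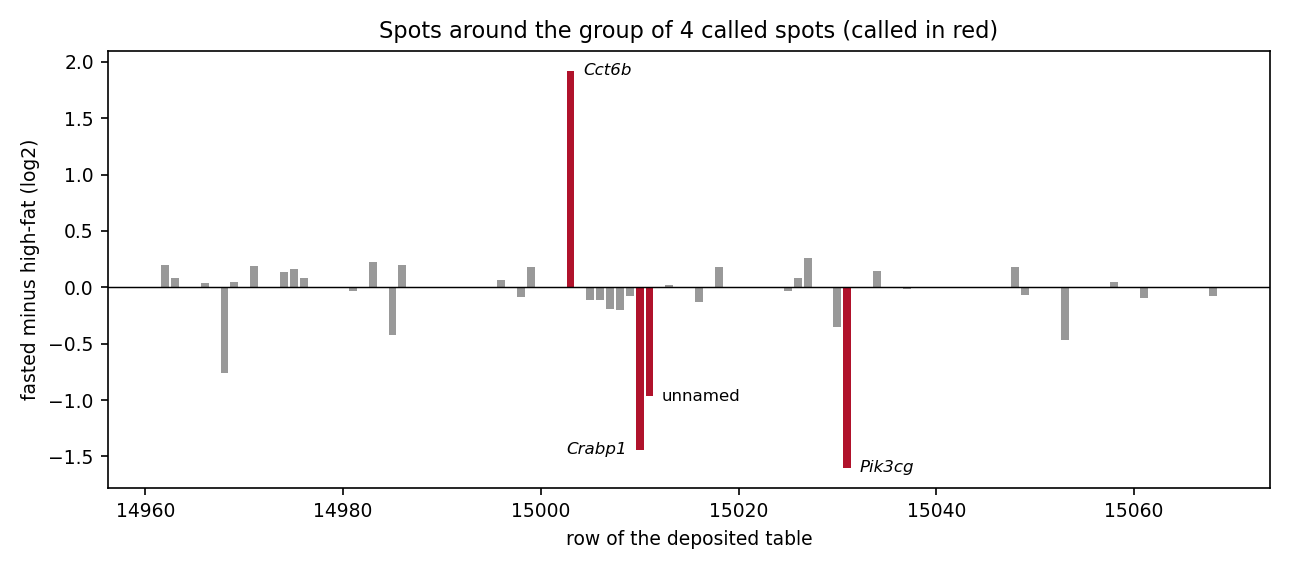
Change with the fast (log2) of each spot compared around rows 15003 to 15031 of the deposited table, with called spots in red. The 4 called spots stand at -0.97 or further from 0 amid grey spots that lie between -0.76 and 0.26.

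Spots filled in one group and empty in the other form a further readout. On all 3 fasted and no high-fat array 53 spots held a value, and 98 showed the reverse. The antithrombin gene Serpinc1 (2.16, 2.07 and 2.20), the ornithine aminotransferase Oat (1.88, 1.66 and 2.08) and the kinase Mapkapk2 (1.35, 1.64 and 1.76) were among the first. Among the second were the fibrinogen chain Fga (1.04, 0.86 and 1.49), the serine synthesis enzyme Psat1, the peroxisomal acyltransferase Crot (0.11, -0.40 and 1.16) and the ferritin receptor Scara5 (0.82, 1.19 and 1.36). The split followed the table. Of the fasted-only spots 37 lay in rows 1 to 5760 and 4 in rows 11521 to 17280, and of the high-fat-only spots 8 and 56. Over all spots, 24.9% of the first of these stretches was filled on fasted and 21.1% on high-fat arrays, and 24.7% and 29.7% of the last. An empty cell in this readout therefore cannot be taken as a low level.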

How the data were processed

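The members and gene lists were chosen with earlier results of these data known. The values are log2 ratios of liver (Cy5) over universal mouse reference RNA (Cy3), as the authors deposited them, with the dyes per the labels' protocols. The base of the logarithm is taken as log2 and is not given in the sources used here, nor are the scanner, background correction, normalisation and the rule for empty cells. Symbols come from the platform's annotation: 14718 of 17280 spots have 1 symbol, 2561 have none and 1 has several. Each array was centred on its median, spots of 1 symbol were averaged (154 genes), and genes with at least 2 values per group were kept. Limma 3.58.1 (lmFit, eBayes, R 4.3.3, statmod 1.5.0) was fitted to 4 control, 3 high-fat and 3 fasted arrays, with 1 mean per group, two-sided tests and Benjamini-Hochberg adjustment, and was tested on simulated data. The fit had 5.17 prior and at most 7 residual degrees of freedom. Intensities were not used, so the number of arrays limits the precision.

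Equal mouse numbers were not taken as pairs. Deviations of arrays with the same number correlated at 0.139, -0.064 and -0.14, and those of unlike numbers at -0.216 to 0.219. With only 3 such values this does not settle whether equal numbers pair the arrays. Alternatives changed the scaling, centring, arrays, filters, spots and spread model, 1 at a time. Named genes are all called genes with a symbol (main or scaled), the 12 largest differences each way without overlap at an unadjusted p under 0.01, up to 4 members with the smallest p per list, and the testable fasting genes. Genes named only for the fit of 6 arrays, for empty cells or for repeated spots were chosen after their values were seen.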

Additional observations from a re-analysis of the deposited data

How the results depend on the processing

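The 15 calls (5 rises, 10 falls) became 16 with arrays scaled to one spread, with 1 rise, and 26 with quantile normalisation, with 22 falls. Values as deposited gave 12 rises and 5 falls, and centring on spots filled on all arrays gave 3 rises. With high-fat array 4 kept there were 3 calls, 0 rises and 3 falls. The 6 arrays alone gave 49, 17 and 32. At least 2 values in each of the 3 groups left 3 rises, and a value on all 6 arrays gave 26 calls with 19 falls. Local medians, added after seeing the data, gave 24 calls with 10 rises. With the mouse number as a replicate block there were 4 calls, 1 rise and 3 falls, Nt5c3, Crabp1, Pik3cg and Sh3kbp1. Leaving out 1 array gave 3 to 36 calls, 0 to 9 rises and 3 to 27 falls. The difference in spread was 0.253 as an interquartile range, and 0.0867 to 0.152 without 1 array. Among the 172 named genes, the sign turned for 21 with scaled arrays, 14 with quantile normalisation and 10 as deposited, 0 of them called. Why each setting moved the counts was not tested.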
